A study of Mus musculus with 23 samples.

Results

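Potassium channel genes of the mouse hippocampus were followed across 7 groups of mice with 0, 1 or 2 intact copies of Acss2. The genes were taken by symbol, as every name made of Kcn, letters and a closing number, with Kcnj8 and Kcne2 left out. Of the 24985 symbols in the dorsal count table, 92 had such a name, those 2 included. A mean of at least 10 reads over the 17 dorsal libraries was then required, which 18 of them missed, and 72 genes remained. Kcnh6 with a mean of exactly 10 reads and Kcne4 with 10.8 lay just inside this limit, and Kcnh8 with 9.9 and Kcng3 with 9.5 just outside it. All 72 genes passed the filter on low counts in both experiments, so every one of them was tested. They comprised 15 pore subunits of the classical voltage-gated families (Kcna, Kcnb, Kcnc and Kcnd), 8 silent subunits (Kcnf, Kcng, Kcns and Kcnv), 11 genes of the Kcnq and Kcnh families, 11 inward rectifiers (Kcnj), 9 two-pore channels (Kcnk), 10 genes of the calcium- or sodium-activated channels and their relatives (Kcnma, Kcnmb, Kcnn, Kcnt and Kcnu) and 8 auxiliary subunits (Kcnab, Kcnip and Kcne).

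ACSS2 makes acetyl-CoA from acetate, in the cytosol and in the nucleus, and the series asks how this supply bears on gene expression and memory. The mice were C57BL6/J, and in the KO and Het animals exons 3 to 7 of Acss2 had been deleted in the single-cell embryo, so the loss was not limited to a cell type. Dorsal hippocampus was cut as 1 mm sections in a brain matrix for 4 KO and 3 WT libraries (KO fear and WT fear), from mice that had received a single shock in contextual fear training 30 min earlier, and for 5 KO and 5 WT libraries from mice in the home cage (KO home and WT home). Whole hippocampus was dissected by hand from home cage mice, with 2 KO, 2 Het and 2 WT libraries. Polyadenylated RNA was sequenced from each library. Nothing in the labels shows that replicates were separate animals, and p-values therefore measure the spread between these libraries.

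Potassium channels let potassium leave the cell, which draws the membrane back to its resting voltage after a spike and sets how readily a neuron fires again. In pyramidal cells the A-type channels of the Kcnd family damp signals in dendrites, Kcnc channels let interneurons fire fast, and G protein-gated Kcnj channels answer inhibitory transmitters. Glia and vessel cells use other members, such as Kcnj10 with Kcnj16 in astrocytes, Kcnmb1 in smooth muscle and Kcnj13 in the choroid plexus.

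KO fear libraries held 7142143 to 19136156 reads, WT fear libraries 5362773 to 9109104, KO home libraries 14054430 to 23412644, WT home libraries 7790467 to 22388429 and whole hippocampus libraries 18814460 to 27293661. Per the labels, batch B1 held WT fear 1 to 3, KO fear 1 and 2 and WT home 1 and 2, batch B2 held KO home 1 to 3 and WT home 3 to 5, and batch B3 held KO fear 3 and 4 and KO home 4 and 5. All 3 WT fear libraries were therefore in B1, the batch with the lowest totals. Acss2 followed the labels, with 3.89 to 6.06 CPM (counts scaled to the library total) in the dorsal KO libraries against 56.4 to 71.6 CPM in the dorsal WT libraries, and with 6.73 to 7.02 CPM in KO, 31.2 to 34.3 CPM in Het against 60.3 to 60.9 CPM in WT whole hippocampus. In whole hippocampus the sex-linked genes differed with the genotype. The 2 KO libraries had 0.137 and 0.145 CPM of Xist and at least 89.6 CPM of Ddx3y, while the Het and WT libraries had at least 598 CPM of Xist and at most 0.186 CPM of Ddx3y. There, genotype and sex-linked expression cannot be told apart between KO and the other genotypes. All 17 dorsal libraries had at most 0.252 CPM of Xist.

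The 72 genes covered a wide range of RNA levels, compared here as CPM per kilobase of exon. In WT home, the auxiliary subunit gene Kcnab2, which binds the inner side of Kcna channels, stood first with 183 ± 15.9 CPM per kb (SD, n = 5). Kcna1, an axonal delayed rectifier, followed with 59.5 ± 8.97 CPM per kb, then Kcnip2, a calcium-binding partner of the Kcnd pores, with 58.1 ± 7.20. The two-pore channel Kcnk1 had 55.5 ± 3.27 CPM per kb, the inward rectifier Kcnj4 45.5 ± 12.8 and Kcnj3, a G protein-gated inward rectifier, 41.2 ± 4.00. Kcnd2, the A-type pore of pyramidal dendrites, had 37.5 ± 5.00 CPM per kb and the astrocyte channel Kcnj10 37.0 ± 5.87. At the low end, Kcnh6 had 0.179 ± 0.0570 CPM per kb. The order was mostly shallow. In 69 of the 71 pairs of neighbouring genes the WT home ranges overlapped, and the ranges were apart only between Kcnab2 and Kcna1 and between Kcnab3 and Kcnn2.

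**Figure D1:**
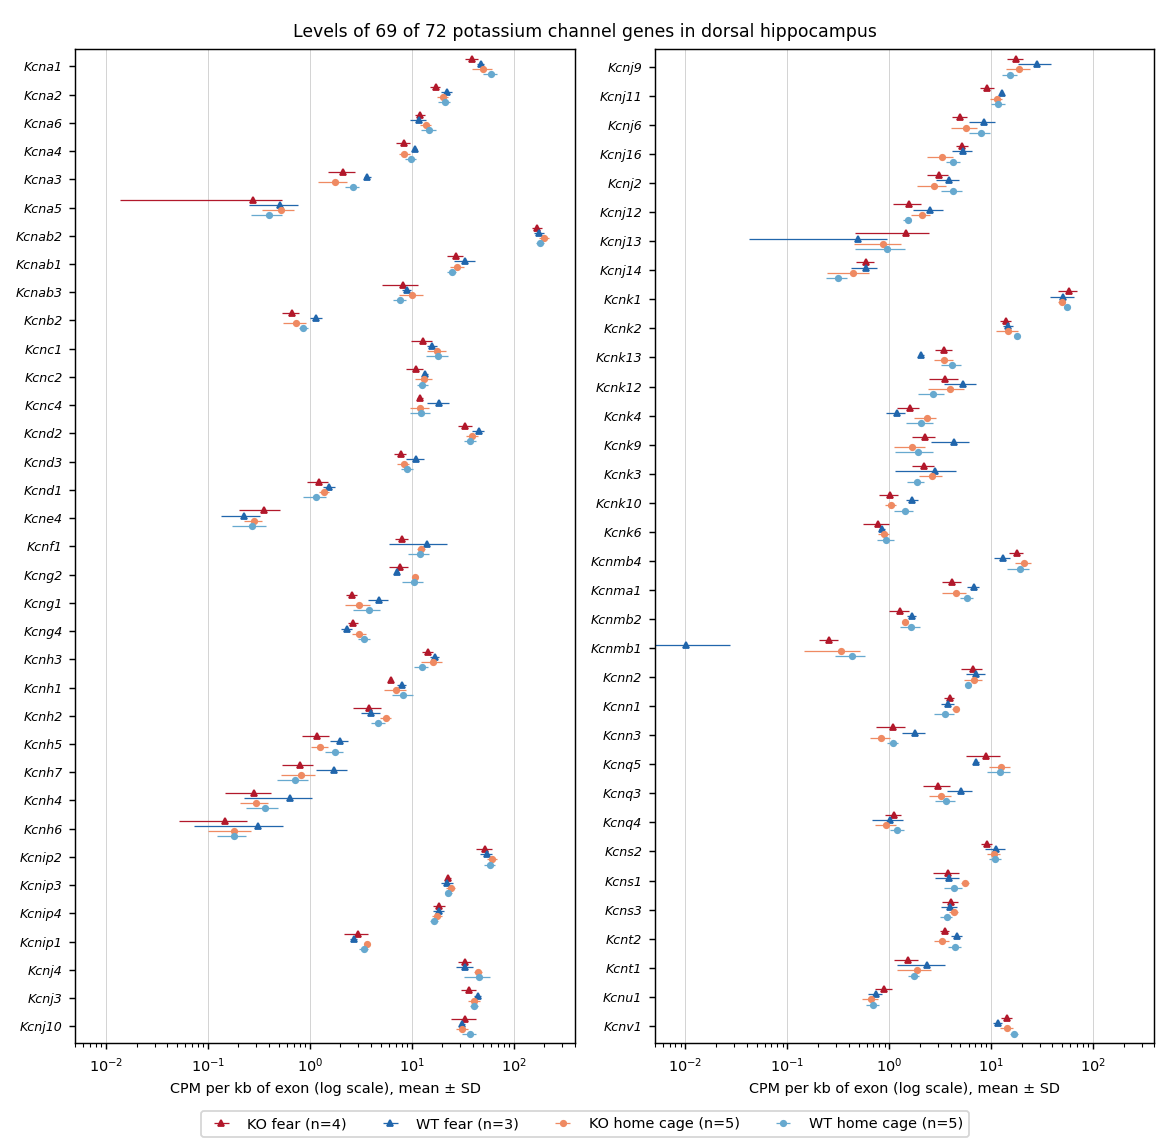
Levels of 69 of the 72 potassium channel genes as mean CPM per kilobase of exon on a logarithmic axis, by subfamily, in KO fear (n = 4), WT fear (n = 3), KO home (n = 5) and WT home (n = 5). Kcnab2 lies highest in every group, and Kcnmb1 in WT fear lies lowest, far below its other groups.

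The plot of levels also shows the most abundant member of most subfamilies in WT home. Among the silent subunits, which form no channel alone and modify Kcnb channels, Kcnv1 had 16.7 ± 1.46 CPM per kb, Kcnf1 11.96 ± 2.71, Kcns2 11.04 ± 1.56 and Kcng2 10.46 ± 2.48. Kcnh3, a slow channel of forebrain neurons, led the Kcnh genes with 12.5 ± 1.96 CPM per kb. Kcnmb4, the neuronal beta subunit of the large-conductance calcium-activated channel, had 19.02 ± 4.64 CPM per kb. Per kilobase it exceeded the pore gene of that channel, Kcnma1, which had 5.74 ± 0.832. Without division by exon length the order was reversed, with 80.7 to 111 CPM for Kcnma1 and 45.9 to 78.2 CPM for Kcnmb4. Exons of Kcnmb4 also overlap Kcnmb4os1 and Kcnmb4os2 on the opposite strand. Of the small-conductance channels Kcnn2 led with 5.98 ± 0.397 CPM per kb, and of the sodium-activated channels Kcnt2 with 4.41 ± 0.628. Kcne4 with 0.272 ± 0.0991 and Kcnu1 with 0.698 ± 0.103 CPM per kb were the sole members of their subfamilies. Summed over all 72 genes, the channels took 4275 to 5636 CPM in KO fear, 5663 to 6367 CPM in WT fear, 4775 to 6706 CPM in KO home and 4841 to 6156 CPM in WT home. KO fear and WT fear did not overlap in this sum, and the home cage groups overlapped with both.

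The comparison with the most called channel genes was that of the genotypes after fear conditioning. In KO fear against WT fear, 28 of the 72 genes fell and 3 rose at an adjusted p under 0.05, by edgeR's quasi-likelihood test with Benjamini-Hochberg adjustment over all 14796 genes tested in dorsal hippocampus (below, edgeR adjusted p). These 31 genes are 43.1% of the members, where 22.2% of all genes were called, 12% lower and 10.2% higher. The log2 difference was below 0 for 58 of the 72 genes, with a median of -0.44, where the median of all genes was 0.01. At an unadjusted p under 0.05 there were 46 members, 63.9% of them against 39% of all genes. Most classical voltage-gated pore genes fell, 11 of 15, with a median log2 difference of -0.61. Of the other roles, 3 of 11 Kcnq and Kcnh genes fell (median -0.49), 2 of 8 silent subunits fell and 1 rose (median -0.29), 3 of 10 calcium- or sodium-activated genes fell and 1 rose (median -0.30), 5 of 11 inward rectifiers fell and 1 rose (median -0.19), 3 of 9 two-pore genes fell (median -0.13) and 1 of 8 auxiliary genes fell (median -0.14). The ranges of the 2 groups were apart for 19 lower and 3 higher members, that is 26.4% and 4.17% of them, where 10.6% and 10.7% of all genes were.

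Several measures moved with this difference. Counts of called members under other settings are given without the share of all genes called, so they do not set the members apart from all genes. Leaving out WT fear 2, WT fear 3 or KO fear 2 brought the number of called members to 0, and leaving out KO fear 1 to 18, while leaving out KO home 3 brought it to 42, and no log2 difference of the 31 changed sign. Within batch B1 alone, with 2 KO fear and 3 WT fear libraries, 70 members were tested and 27 called, 22 of them among the 31. In all, 2349 genes were called in that fit. At an unadjusted p under 0.05 there were 41 members, 58.6% of those tested against 34% of all genes. All 31 log2 differences kept their sign. The main fit uses these same libraries, with every WT fear library in B1, so the signs are not an independent check. Without the batch term 12 were called, and the log2 differences of Kcnc1, Kcnd1, Kcnk12 and Kcnj12 came to -0.31, -0.33, -0.55 and -0.67 and missed the threshold. Of the CA1 markers, 7 of the 9 tested fell in KO fear, and their summed level was 411, 394, 870 and 971 CPM in KO fear 1 to 4 against 673, 1099 and 1136 CPM in WT fear 1 to 3. The list's other symbol, Nov, was not matched in the count tables under that name and was not used here. Oligodendrocyte markers rose for 10 of 15 genes, with summed levels of 7243 to 11400 CPM in KO fear against 4285 to 5767 CPM in WT fear. Ependymal markers rose for 10 of 12, with 35.4 to 94.2 CPM in KO fear against 16.7 to 22.4 CPM in WT fear. CA2 and CA3 markers rose for 5 of 12, with 877 to 1107 CPM in KO fear against 536 to 843 CPM in WT fear, while 3 of 12 dentate granule cell markers fell, with 775 to 1113 CPM in KO fear against 1006 to 1471 CPM in WT fear. Inhibitory neuron markers went both ways, 3 higher and 3 lower of 12. Neocortex markers fell for 2 of 10, with 456 to 624 CPM in KO fear against 744 to 768 CPM in WT fear. Astrocyte markers rose for 3 of 12, thalamus markers had 1 higher and 1 lower of 12, and endothelium markers had 0 of 12 called. The endothelium sums were 113 to 225 CPM in KO fear against 88.7 to 93.9 CPM in WT fear, without overlap. The shares called were 20% for neocortex, 16.7% for thalamus and 25% each for dentate granule cell and astrocyte markers. Of all genes, 22.2% were called, 12% lower and 10.2% higher. The part of these tissue markers in the channel differences was not tested, and in bulk RNA fewer cells of a type and less RNA per cell cannot be told apart.

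**Figure D2:**
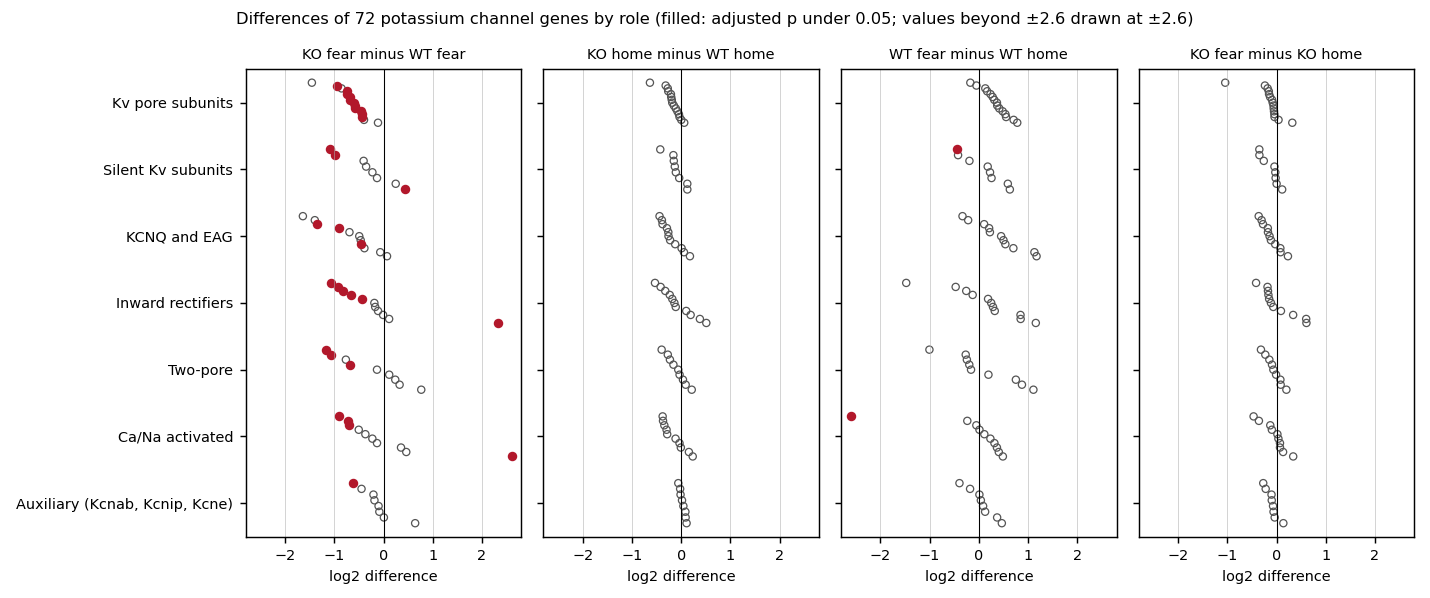
Log2 differences of the 72 genes in 4 dorsal comparisons, by role, with 1 point per gene, filled where the edgeR adjusted p was under 0.05. Values beyond 2.6 in either direction are drawn at that limit, and 31 points are filled for KO fear against WT fear, 2 for WT fear against WT home and 0 in the comparisons of KO fear with KO home and of KO home with WT home.

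Among the voltage-gated pores, all 3 Kcnd genes fell in KO fear, and so did Kcnb2, Kcnc1, Kcnc2 and Kcnc4. Kcnb2, a delayed rectifier, had 8.10 to 12.5 CPM in KO fear against 16.3 to 20.1 CPM in WT fear. The groups did not overlap (log2 difference -0.74 ± 0.23, SE; edgeR adjusted p = 0.0343). Kcnd2 had 168, 137, 188 and 202 CPM in KO fear against 234, 203 and 266 CPM in WT fear. KO fear 4 lay just under WT fear 2, so the groups came close without overlapping, and the log2 difference was -0.59 ± 0.15 (edgeR adjusted p = 0.018). Kcnd3, the A-type pore of many interneurons, averaged 74.7 ± 10.1 CPM in KO fear and 106 ± 20.97 CPM in WT fear (SD, n = 4 and 3), with a log2 difference of -0.61 ± 0.18 (edgeR adjusted p = 0.0259). The X-linked Kcnd1 was lower by -0.68 ± 0.20 on the log2 scale (edgeR adjusted p = 0.0293).

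The channels of the Kcnc genes open at high voltage and close fast. Kcnc4 had 48.0, 40.8, 43.6 and 45.7 CPM in KO fear against 57.0, 86.7 and 61.1 CPM in WT fear. All 4 KO fear libraries were below all 3 WT fear libraries, and the log2 difference was -0.75 ± 0.21 (edgeR adjusted p = 0.025). Kcnc1 and Kcnc2 were lower by -0.58 ± 0.16 and -0.44 ± 0.14 on the log2 scale, with edgeR adjusted p-values of 0.0236 and 0.0384. For Kcnc1, KO fear 1 and 2 had 92.7 and 103 CPM and KO fear 3 and 4 had 141 and 149 CPM, so that the libraries of batch B3 overlapped with the 135 to 166 CPM of WT fear.

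Of the Kcna genes, 2 of 6 fell. Kcna2, an axonal channel that limits spike firing, had 216, 169, 212 and 219.6 CPM in KO fear against 233, 293 and 263 CPM in WT fear, without overlap (log2 difference -0.45 ± 0.12, edgeR adjusted p = 0.0222). Kcna4, an A-type channel of axons and terminals, had 32.5 to 47.3 CPM in KO fear against 49.1 to 53.4 CPM in WT fear (log2 difference -0.45 ± 0.15, edgeR adjusted p = 0.0442), and this call held in 7 of the 17 fits that left out 1 library. The abundant Kcna1 had 146 to 207 CPM in KO fear against 208 to 242 CPM in WT fear, with a log2 difference of -0.40 ± 0.15 that missed the threshold (edgeR adjusted p = 0.068). Kcna3 (log2 difference -0.85 ± 0.32, edgeR adjusted p = 0.0635) and Kcna5 (-1.46 ± 0.60, edgeR adjusted p = 0.0838), both delayed rectifiers at low levels here, missed it as well.

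The silent subunits were split. Kcng1 had 10.8, 10.6, 11.4 and 13.6 CPM in KO fear against 17.9, 27.0 and 19.9 CPM in WT fear, with no overlap (log2 difference -1.10 ± 0.28, edgeR adjusted p = 0.0182). Kcnf1 had 39.6, 32.3, 35.99 and 46.3 CPM in KO fear against 47.2, 111 and 43.1 CPM in WT fear (log2 difference -0.98 ± 0.26, edgeR adjusted p = 0.0214). WT fear 2 alone reached more than 100 CPM, and the other two WT fear libraries lay near KO fear 4. Without WT fear 2 the log2 difference was -0.39 (edgeR adjusted p = 0.101). Kcnv1 rose, with 77.5, 66.3, 58.6 and 62.1 CPM in KO fear against 58.7, 48.8 and 51.7 CPM in WT fear. KO fear 3 and WT fear 1 were nearly level, and the log2 difference was 0.43 ± 0.11 (edgeR adjusted p = 0.0186).

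In the Kcnq and Kcnh families, which carry the M current and the ether-a-go-go currents, 10 of 11 log2 differences were below 0. Kcnq3, a subunit of the M current, had 42.2, 27.4, 50.4 and 57.9 CPM in KO fear against 62.5, 62.8 and 98.7 CPM in WT fear (log2 difference -0.91 ± 0.30, edgeR adjusted p = 0.0383). Kcnq5 had 47.4, 47.0, 87.6 and 94.98 CPM in KO fear against 51.6, 56.6 and 57.5 CPM in WT fear. Its KO fear libraries split by batch, with B1 below and B3 above WT fear (log2 difference -0.07 ± 0.22, edgeR adjusted p = 0.85). Kcnh7, an ether-a-go-go related channel, had 12.1, 6.52, 14.6 and 16.1 CPM in KO fear against 17.6, 26.6 and 35.6 CPM in WT fear, without overlap (log2 difference -1.35 ± 0.38, edgeR adjusted p = 0.0239). It shares exon sequence with Gca on the opposite strand, and the library kit does not mark strand. Kcnh2, the gene of the cardiac repolarizing current, was lower by -0.46 ± 0.16 on the log2 scale (edgeR adjusted p = 0.0494), a call that held in 4 of the 17 fits without 1 library. Without the batch term its log2 difference was -0.06 (edgeR adjusted p = 0.864). The related Kcnh3 (-0.46 ± 0.17, edgeR adjusted p = 0.0567) and Kcnh1 (-0.39 ± 0.19, edgeR adjusted p = 0.13) missed the threshold.

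**Figure D3:**
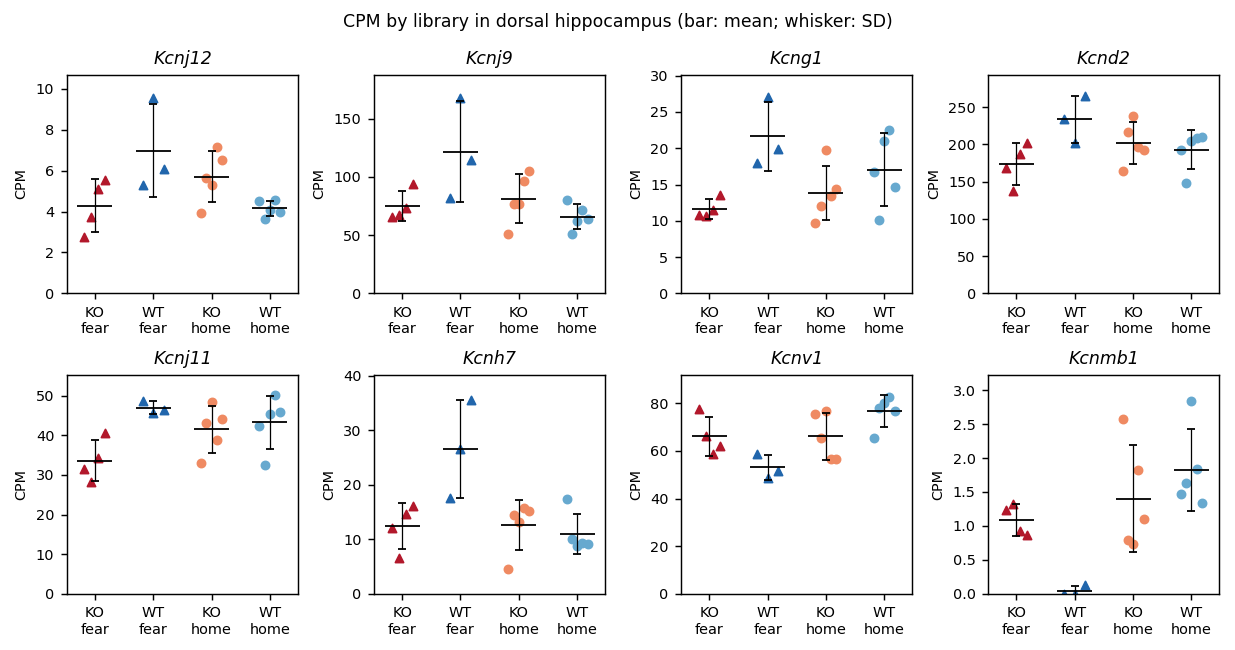
CPM in each dorsal library for Kcnj12, Kcnj9, Kcng1, Kcnd2, Kcnj11, Kcnh7, Kcnv1 and Kcnmb1, with 1 point per library in KO fear (n = 4), WT fear (n = 3), KO home (n = 5) and WT home (n = 5) with the mean as a bar and the SD as a whisker. Kcng1, Kcnd2, Kcnj11 and Kcnh7 have all KO fear libraries below all WT fear libraries, and Kcnmb1 lies at 0 or near it in WT fear.

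Of the inward rectifiers, which pass current best near rest, 5 genes fell, among them the 3 G protein-gated members. Kcnj4 and Kcnj2, also expressed by neurons, were not called. Kcnj4 had 56.9, 77.2, 75.2 and 79.6 CPM in KO fear against 63.3, 87.1 and 66.1 CPM in WT fear. Kcnj2 had 13.75 to 22.5 CPM in KO fear against 15.4 to 26.1 CPM in WT fear. Kcnj9 had 65.5, 66.9, 73.5 and 93.9 CPM in KO fear against 82.0, 168 and 115 CPM in WT fear, where KO fear 4 lay above WT fear 1 (log2 difference -0.93 ± 0.23, edgeR adjusted p = 0.0178). Kcnj6 had 29.4 to 45.6 CPM in KO fear against 53.8 to 86.0 CPM in WT fear (log2 difference -0.83 ± 0.29, edgeR adjusted p = 0.0471, called in 7 of 17 fits without 1 library). Kcnj3 had 145 to 217 CPM in KO fear against 215 to 249 CPM in WT fear (log2 difference -0.43 ± 0.14, edgeR adjusted p = 0.0427, called in 10 of 17 such fits, and -0.27 without KO fear 2). Kcnj11, the pore of the ATP-sensitive channel that links metabolism to firing, had 31.4, 28.3, 34.3 and 40.5 CPM in KO fear against 48.7, 45.6 and 46.5 CPM in WT fear. The 3 WT fear libraries lay within a narrow band above every KO fear library (log2 difference -0.65 ± 0.15, edgeR adjusted p = 0.0156). Kcnj12, a strong inward rectifier, had 2.74, 3.75, 5.13 and 5.55 CPM in KO fear against 5.29, 9.57 and 6.08 CPM in WT fear (log2 difference -1.07 ± 0.24, edgeR adjusted p = 0.0156), with KO fear 4 above WT fear 1.

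Inward rectifiers known from other cells were not all alike. The astrocyte genes Kcnj10 (182 ± 49.9 CPM in KO fear and 169.7 ± 9.93 in WT fear, SD, n = 4 and 3) and Kcnj16 (20.6 ± 2.77 and 20.95 ± 4.85 CPM in the same groups) had log2 differences of 0.11 ± 0.21 and -0.01 ± 0.26, with edgeR adjusted p-values of 0.726 and 0.984. Kcnj13, a channel of choroid plexus epithelium, rose, with 2.47, 3.26, 0.432 and 1.22 CPM in KO fear against 1.13, 0 and 0.760 CPM in WT fear (log2 difference 2.32 ± 0.66, edgeR adjusted p = 0.0244). KO fear 1 and 2 stood high, KO fear 4 lay just above WT fear 1, and KO fear 3 lay within the range of WT fear. Of the choroid plexus markers, 6 of 12 rose as well, with a summed level of 111 to 543 CPM in KO fear against 54.3 to 157 CPM in WT fear. As with Kcnj13 itself, none of these markers was at 0 in every library of either group. Their part in the Kcnj13 difference was not tested. Kcnj13 also shares exon sequence with Gigyf2 on the opposite strand.

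Among the two-pore channels, which hold the resting voltage, 3 fell. Kcnk9, an acid-sensitive leak channel, had 26.6, 22.8, 23.7 and 38.1 CPM in KO fear against 30.8, 73.8 and 55.2 CPM in WT fear (log2 difference -1.06 ± 0.31, edgeR adjusted p = 0.0278). Kcnk12, a halothane-inhibited relative, had 5.35, 4.95, 8.36 and 9.42 CPM in KO fear against 7.37, 14.4 and 9.63 CPM in WT fear (log2 difference -1.16 ± 0.31, edgeR adjusted p = 0.0203), with overlap in both genes. Kcnk10, a stretch-sensitive channel, had 6.16 to 10.54 CPM in KO fear against 13.3 to 17.3 CPM in WT fear (log2 difference -0.68 ± 0.23, edgeR adjusted p = 0.0441, called in 8 of 17 fits without 1 library, and -0.37 without KO fear 2). Its relative Kcnk2 (0.12 ± 0.11 on the log2 scale, edgeR adjusted p = 0.48), the abundant Kcnk1 (0.33 ± 0.16, edgeR adjusted p = 0.14) and the acid-sensitive Kcnk3 (-0.77 ± 0.31, edgeR adjusted p = 0.0824) missed the threshold. Kcnk13, which microglia use in the brain, had 9.05 to 13.3 CPM in KO fear against 6.04 to 6.71 CPM in WT fear. Its groups did not overlap, and its log2 difference of 0.77 ± 0.28 missed the threshold (edgeR adjusted p = 0.056). Of the microglia markers 1 of 12 rose, or 8.33%, where 10.2% of all genes were called higher. Their summed levels were 656 to 816 CPM in KO fear against 552 to 647.5 CPM in WT fear.

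Of the 10 calcium- or sodium-activated genes, the pore genes Kcnma1, Kcnn3 and Kcnt1 fell and the beta subunit gene Kcnmb1 rose. Kcnma1, the large-conductance pore, had 78.6, 49.4, 75.6 and 79.6 CPM in KO fear against 96.5, 125 and 121 CPM in WT fear, without overlap (log2 difference -0.72 ± 0.23, edgeR adjusted p = 0.0353, and -0.44 without KO fear 2, where it missed the threshold). Kcnmb4, its neuronal partner, went the other way, with 52.3 to 72.9 CPM in KO fear against 36.5 to 51.9 CPM in WT fear, and a log2 difference of 0.46 ± 0.16 that missed the threshold (edgeR adjusted p = 0.0529). Kcnmb1 rose, with 1.23, 1.33, 0.917 and 0.866 CPM in KO fear against 0, 0 and 0.127 CPM in WT fear. These are 54 reads in 4 KO fear libraries against 1 read in 3 WT fear libraries, a depth-scaled ratio of 22.4 with an exact 95% interval of 3.85 to 901 that covers counting error only. The fitted log2 difference was 4.33 ± 1.14 (edgeR adjusted p = 0.0202), and 6.99 without WT fear 3, the library with the 1 read. The smooth muscle marker Acta2 was at 2.74 to 6.93 CPM in KO fear against 0.507 to 0.880 CPM in WT fear. Of the pericyte and smooth muscle markers 3 of 11 rose, with summed levels of 147 to 218 CPM in KO fear against 103 to 141 CPM in WT fear. As with Kcnmb1 itself, none of these markers was at 0 in every library of either group. Their part in the Kcnmb1 difference was not tested. Kcnt1, a sodium-activated pore, was lower by -0.90 ± 0.30 on the log2 scale (edgeR adjusted p = 0.0412, called in 9 of 17 fits without 1 library), and by -0.41 without WT fear 2 (edgeR adjusted p = 0.308). The small-conductance Kcnn3 was lower by -0.70 ± 0.24 (edgeR adjusted p = 0.0482, called in 5 of 17 such fits), by -1.11 without KO fear 1 and by -0.46 without KO fear 2. Kcnn1 (-0.13 ± 0.14, edgeR adjusted p = 0.515) and Kcnn2 (-0.37 ± 0.16, edgeR adjusted p = 0.099) missed the threshold.

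Of the 8 auxiliary subunits, which sit on the pores and tune their gating, Kcnab3 was the 1 that fell, with 13.4, 19.1, 30.4 and 32.1 CPM in KO fear against 22.9, 28.0 and 25.7 CPM in WT fear. KO fear 1 and 2 lay below and KO fear 3 and 4 above the WT fear libraries, and the fit that allows for batch gave a log2 difference of -0.62 ± 0.17 (edgeR adjusted p = 0.0225), against -0.08 without the batch term (edgeR adjusted p = 0.857). Kcnab3os overlaps its exons on the opposite strand. The dominant Kcnab2 averaged 952 ± 105 CPM in KO fear and 1001 ± 109.7 CPM in WT fear (SD, n = 4 and 3), a log2 difference of -0.18 ± 0.12 (edgeR adjusted p = 0.256), and Kcnab1 had -0.45 ± 0.18 (edgeR adjusted p = 0.0784). The 4 Kcnip genes, the calcium-binding partners of Kcnd channels, had log2 differences between -0.20 and 0.01, with edgeR adjusted p-values of 0.313 for Kcnip2, 0.603 for Kcnip3 and 0.975 for Kcnip4. Of 30 listed partner proteins of potassium channels and the related HCN channels, 28 were tested, and 6 fell and 0 rose in KO fear against WT fear (median log2 difference -0.40). That is 21.4% of those tested, all lower, where 22.2% of all genes were called, 12% lower and 10.2% higher. The log2 difference was below 0 for 20 of the 28. The 6 included Adam22, which sits beside axonal Kcna channels (-0.71, edgeR adjusted p = 0.0156), Amigo1, a neuronal adhesion protein (-0.55, edgeR adjusted p = 0.0156), and Akap5, a scaffold of M channels (-0.82, edgeR adjusted p = 0.0171). Neither the partners nor the auxiliary subunits were set against the pores in a test of the difference.

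Promoter sequence is shown for the genes the comparisons turn on, Kcnj12 (the member called in the interaction, below), Kcnj9 (a G protein-gated rectifier), Kcnd2 (the dendritic A-type pore) and Kcnj2 (the member called in whole hippocampus). Each is the 250 bases before the start RefSeq gives for the gene on GRCm38.p6, read 5′ to 3′ on the strand of the gene. The windows are chr11:61065554-61065803 on the plus strand for Kcnj12, chr1:172329323-172329572 on the minus strand for Kcnj9, chr6:21215096-21215345 on the plus strand for Kcnd2 and chr11:111065914-111066163 on the plus strand for Kcnj2. Capitals mark matches by letters alone, whatever their distance from the start. In Kcnj9 they mark TATAAA, the letters of the TATA box, nearer the far end of the window than the start. In the other genes with capitals they mark GGGCGG, the letters of the GC box.
Kcnj12: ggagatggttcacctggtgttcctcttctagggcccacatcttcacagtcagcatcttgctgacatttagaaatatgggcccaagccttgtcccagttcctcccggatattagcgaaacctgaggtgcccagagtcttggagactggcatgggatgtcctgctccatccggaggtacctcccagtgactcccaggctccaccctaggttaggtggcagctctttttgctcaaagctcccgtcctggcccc
Kcnj9: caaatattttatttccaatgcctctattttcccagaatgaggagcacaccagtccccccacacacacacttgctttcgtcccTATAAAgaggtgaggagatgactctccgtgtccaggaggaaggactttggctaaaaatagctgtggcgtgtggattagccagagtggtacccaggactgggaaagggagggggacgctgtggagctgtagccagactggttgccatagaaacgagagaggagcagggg
Kcnd2: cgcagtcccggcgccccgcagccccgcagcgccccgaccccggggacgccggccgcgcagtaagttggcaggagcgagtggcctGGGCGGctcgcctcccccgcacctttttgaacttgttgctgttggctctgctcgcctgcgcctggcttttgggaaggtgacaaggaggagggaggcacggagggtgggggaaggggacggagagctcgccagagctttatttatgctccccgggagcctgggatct
Kcnj2: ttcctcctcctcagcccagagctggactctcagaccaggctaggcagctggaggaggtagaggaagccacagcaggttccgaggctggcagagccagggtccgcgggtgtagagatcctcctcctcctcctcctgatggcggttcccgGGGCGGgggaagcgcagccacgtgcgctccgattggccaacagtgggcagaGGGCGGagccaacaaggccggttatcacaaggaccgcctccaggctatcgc
The windows of Kcnd2 and Kcnj2 were rich in G and C, at 68.8% and 65.6%, against 56% for Kcnj12 and 52% for Kcnj9. On both strands, Kcnj9 held 1 match to TATAAA, Kcnd2 1 and Kcnj2 2 matches to GGGCGG, and Kcnj12 none. Of all 27025 such windows, 13% held TATAAA and 32.9% GGGCGG. None of the 4 held TGACGTCA, the full cAMP response element, or the shorter TGACG that lies within it, which 1.62% and 17.9% of all windows held. The window of Kcnj12 lies inside the gene's GENCODE span (chr11:61022564-61071131, mm10), and the other windows lie upstream of the spans of Kcnj9 (chr1:172320501-172329318), Kcnd2 (chr6:21215503-21729805) and Kcnj2 (chr11:111066164-111076821). The bases just after RefSeq's start occur in a GENCODE transcript of the gene for Kcnj12 and Kcnj2, and not for Kcnj9 and Kcnd2. RefSeq's table gave a window for 50 of the 72 genes, or 69.4%, too few for a share over the members.

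Fear conditioning was also set against the home cage within each genotype, from the same libraries, so the 4 dorsal comparisons share groups and are given side by side. In WT fear against WT home, 0 members rose and 2 fell, 2.78% of the 72 genes, where 1.64% of all genes were called, 0.872% higher and 0.764% lower. At an unadjusted p under 0.05 there were 25 members, 34.7% of them against 20.8% of all genes. The ranges were apart for 11 higher (15.3%) and 7 lower members (9.72%), where 7.68% and 8.44% of all genes were. The log2 difference was above 0 for 51 of the 72 genes with a median of 0.23, where the median of all genes was -0.02, and 13 of the 15 voltage-gated pores were above 0. The called genes were Kcnmb1 and Kcnv1. Kcnmb1 had 0, 0 and 0.127 CPM in WT fear against 1.46, 1.64, 2.84, 1.84 and 1.33 CPM in WT home. That is 1 read in WT fear against 142 in WT home, so the level was higher in WT home by a ratio of 41.8 (exact 95% interval 7.39 to 1664, counting error only), and the fitted log2 difference was -5.07 ± 1.05 (edgeR adjusted p = 0.0329). This call was lost without WT home 2, WT fear 2, WT fear 3, KO home 4, KO fear 2 or KO fear 4 (edgeR adjusted p up to 0.176), and the fitted difference was -7.73 without WT fear 3. Kcnv1 had 58.7, 48.8 and 51.7 CPM in WT fear against 65.4, 78.2, 80.3, 82.7 and 76.9 CPM in WT home, without overlap (log2 difference -0.45 ± 0.11, edgeR adjusted p = 0.0495, kept only without WT home 1, WT fear 1, KO home 1 or KO home 3). Kcnd2 (0.48 ± 0.14, edgeR adjusted p = 0.0823), Kcnd1 (0.78 ± 0.21, edgeR adjusted p = 0.062), Kcnj9 (0.85 ± 0.23, edgeR adjusted p = 0.0656) and Kcnk12 (1.11 ± 0.31, edgeR adjusted p = 0.0686) had positive log2 differences that missed the threshold, and so did Kcnk13, with a negative one (-1.004 ± 0.28, edgeR adjusted p = 0.0656). In this comparison, CA1 markers rose for 5 of 9 genes, with 673 to 1136 CPM in WT fear against 407 to 569 CPM in WT home. Oligodendrocyte markers fell for 11 of 15, with 4285 to 5767 CPM in WT fear against 7405 to 14710 CPM in WT home. CA2 and CA3 markers fell for 3 of 12, with 536 to 843 CPM in WT fear against 1094 to 1561 CPM in WT home. Ependymal markers fell for 5 of 12, with 16.7 to 22.4 CPM in WT fear against 57.6 to 137 CPM in WT home. Beside Kcnmb1, pericyte and smooth muscle markers fell for 2 of 11, with 103 to 141 CPM in WT fear against 156 to 206 CPM in WT home, and Acta2 had 0.507 to 0.880 CPM in WT fear against 4.28 to 9.10 CPM in WT home. The part of these markers in the channel values was not tested.

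Among KO libraries, 0 of the 72 genes passed the test in KO fear against KO home, where 0% of all genes were called. At an unadjusted p under 0.05 there were 5 members, 6.94% of them against 4.82% of all genes, and DESeq2 also called 0. The smallest p belonged to Kcna5 (log2 difference -1.04 ± 0.43), Kcnh2 (-0.36 ± 0.13), Kcng2 (-0.26 ± 0.11), Kcns1 (-0.35 ± 0.15) and Kcnj16 (0.60 ± 0.23), each with an edgeR adjusted p of 0.967. Kcnj16 had 22.1, 16.4, 21.8 and 22.1 CPM in KO fear against 16.03, 8.64, 15.8, 9.32 and 15.4 CPM in KO home, the 1 member that was higher without overlap, 1.39% of the 72 genes, where 2.33% of all genes were. The 4 that were lower without overlap were Kcna2, Kcnf1, Kcng2 and Kcnj4, 5.56% of the members, where 1.97% of all genes were.

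Between genotypes in the home cage, edgeR called 0 of the 72 genes in KO home against WT home, where 0.00676% of all genes were called. There were 8 members at an unadjusted p under 0.05, 11.1% of them against 11.3% of all genes, and DESeq2 called 0. No member had ranges that were apart, which 1.7% of all genes had on the higher and 1.38% on the lower side, and without KO home 3 the test called 4. The log2 difference was below 0 for 51 of 72 genes, with a median of -0.12, where the median of all genes was -0.02. The smallest p belonged to Kcna1 (-0.32 ± 0.12), Kcna3 (-0.64 ± 0.23), Kcnj6 (-0.53 ± 0.22), Kcnk10 (-0.40 ± 0.17) and Kcnt2 (-0.28 ± 0.12), each with an edgeR adjusted p of 0.441. Kcna1 had 226, 233, 332, 208 and 204 CPM in KO home against 262, 234, 347, 302 and 278 CPM in WT home, and the groups overlapped.

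The interaction asks whether the fear difference of KO mice differed from that of WT mice. Only Kcnj12 passed, 1.39% of the 72 genes, where 0.48% of all genes were called, 0.284% lower. It had 2.74, 3.75, 5.13 and 5.55 CPM in KO fear against 3.93, 5.65, 5.30, 7.15 and 6.51 CPM in KO home, and 5.29, 9.57 and 6.08 CPM in WT fear against 4.51, 3.65, 4.10, 4.56 and 4.00 CPM in WT home. WT fear lay above every WT home library, while KO fear overlapped with KO home on the lower side. The fear difference was -0.42 ± 0.20 in KO and 0.85 ± 0.24 in WT on the log2 scale, and the interaction -1.26 ± 0.26 (edgeR adjusted p = 0.0457, kept only without WT home 1, WT fear 1, KO home 1 or KO home 3, up to 0.205 otherwise). The next smallest belonged to Kcnv1 (0.56 ± 0.13, edgeR adjusted p = 0.052), Kcnmb1 (4.71 ± 1.14, edgeR adjusted p = 0.0599), Kcnj9 (-1.03 ± 0.26, edgeR adjusted p = 0.0643) and Kcnk12 (-1.25 ± 0.34, edgeR adjusted p = 0.0736). At an unadjusted p under 0.05 there were 28 members, 38.9% of the 72 genes against 21.8% of all genes.

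**Figure D4:**
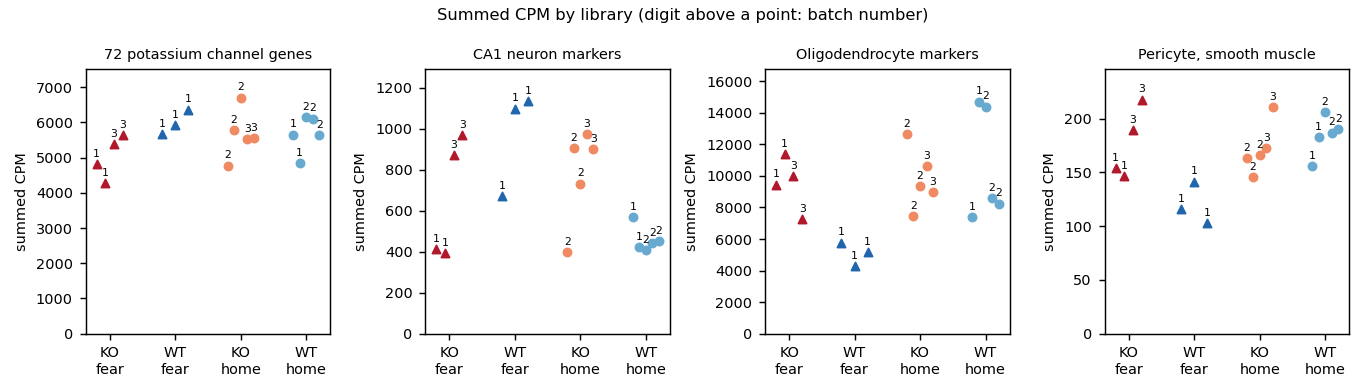
Summed CPM per dorsal library of the 72 potassium channel genes and of the marker lists of CA1 neurons, oligodendrocytes, and pericytes and smooth muscle, in KO fear (n = 4), WT fear (n = 3), KO home (n = 5) and WT home (n = 5), 1 point per library with its batch number above it. The channel sum lies between 5663 and 6367 CPM in WT fear and between 4275 and 5636 CPM in KO fear, and oligodendrocyte sums are lowest in WT fear.

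The plot of summed levels puts the channels beside the tissue markers in the same libraries. KO fear 2 had the lowest channel sum, 4275 CPM, and also the lowest CA1 sum, 394 CPM. WT fear 3 had 6367 CPM of channels and 1136 CPM of CA1 markers, the highest of the fear groups in both. The highest channel sum of all, 6706 CPM, was in KO home 3, where CA1 markers summed to 732.5 CPM. Other libraries did not share this order. WT home 3 and WT home 4 had 6156 and 6110 CPM of channels with only 407 and 441 CPM of CA1 markers. KO home 4 had 5518 CPM of channels with 975 CPM of CA1 markers. The relation of the 2 sums was not tested.

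In whole hippocampus, where KO, Het and WT mice were compared in the home cage, 1 of the 72 genes passed in 1 of 3 comparisons. In KO against Het, Kcnj2 fell, 1.39% of the members, where 0.0841% of all 15453 genes tested were called, 0.0453% higher and 0.0388% lower. At an unadjusted p under 0.05 there were 21 members, 29.2% of them against 13.2% of all genes. The ranges were apart for 4 higher (5.56%) and 25 lower members (34.7%), where 20% and 23% of all genes were. Kcnj2, a strong inward rectifier of neurons and vessels, had 8.97 and 10.03 CPM in KO, 20.2 and 22.5 CPM in Het against 10.11 and 10.03 CPM in WT. The Het libraries stood above both other genotypes, which lay together. Pericyte and smooth muscle markers summed to 311 to 379 CPM in KO, 404 to 434 CPM in Het against 354 to 373 CPM in WT, and Acta2 had 11.04 to 23.8 CPM in KO, 27.8 to 30.4 CPM in Het against 17.1 to 21.4 CPM in WT. Neocortex markers summed to 622 to 643 CPM in KO, 705 to 1224 CPM in Het against 584 to 597 CPM in WT. Their part in the Kcnj2 difference was not tested. The log2 difference was -1.17 ± 0.11 for KO against Het (edgeR adjusted p = 0.0364) and 1.084 ± 0.11 for Het against WT (edgeR adjusted p = 0.122). The KO against Het call passed only without Het 1 among the fits that left out 1 library (edgeR adjusted p = 0.00384 to 0.282). Kcnj16, the neighbour of Kcnj2 on chromosome 11, had 17.4 and 17.6 CPM in KO, 27.1 and 26.5 CPM in Het against 18.1 and 17.2 CPM in WT, the same order, and missed the threshold (log2 difference -0.61 ± 0.071 for KO against Het, edgeR adjusted p = 0.0715). Kcnk2, a stretch-sensitive leak channel, had 58.1 and 60.3 CPM in KO, 71.4 and 71.6 CPM in Het against 58.0 and 57.7 CPM in WT (0.31 ± 0.051 for Het against WT, edgeR adjusted p = 0.174). Kcnj4, an inward rectifier of forebrain neurons, had 74.1 and 73.9 CPM in KO, 88.2 and 109 CPM in Het against 82.5 and 81.1 CPM in WT (log2 difference -0.42 ± 0.097 for KO against Het, edgeR adjusted p = 0.238). Kcnab3 (0.51 ± 0.12, edgeR adjusted p = 0.255) and Kcnj12 (0.60 ± 0.16, edgeR adjusted p = 0.277) had positive log2 differences in Het against WT. KO libraries differed from Het and WT in sex-linked genes too, as given above, which cannot be told apart from genotype here.

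**Figure D5:**
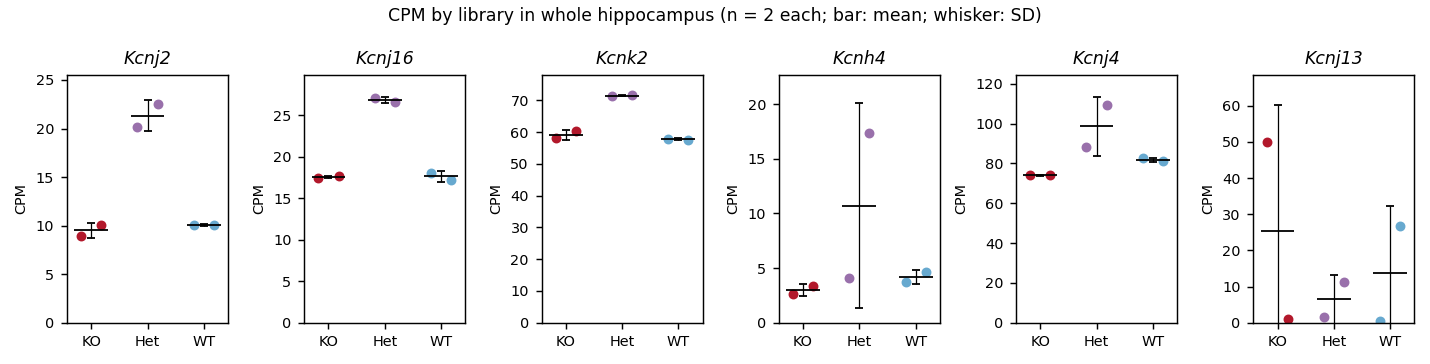
CPM in each whole hippocampus library for Kcnj2, Kcnj16, Kcnk2, Kcnh4, Kcnj4 and Kcnj13, with 1 point per library in KO, Het and WT (n = 2 each), the mean as a bar and the SD as a whisker. Both Het libraries lie above the KO and WT libraries for Kcnj2, Kcnj16 and Kcnk2, and the 2 libraries of a genotype lie far apart for Kcnj13.

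Other members differed between the 2 libraries of a genotype. Kcnh4, an ether-a-go-go-like channel, had 2.64 and 3.37 CPM in KO, 4.10 and 17.4 CPM in Het against 3.71 and 4.65 CPM in WT, and Het 2, which was high, also had a neocortex marker sum of 1224 CPM where the other 5 libraries had 584 to 705 CPM. Kcnj13 had 49.96 and 1.00 CPM in KO, 1.70 and 11.2 CPM in Het against 0.595 and 26.9 CPM in WT. The choroid plexus marker sum ran with it, at 4217 and 40.8 CPM in KO, 43.4 and 1021 CPM in Het against 45.0 and 2666 CPM in WT, and its part was not tested. In KO against WT, edgeR called 0 members, where 0.0388% of all genes were called, 0.0259% higher and 0.0129% lower, and 1 member (1.39%) was at an unadjusted p under 0.05 against 6.09% of all genes. The smallest p belonged to Kcna3 (-0.55 ± 0.25), Kcnd1 (-0.27 ± 0.11), Kcnip3 (-0.18 ± 0.079), Kcng1 (-0.31 ± 0.16) and Kcnh3 (-0.29 ± 0.17), with edgeR adjusted p-values of 0.802 to 0.833. The ranges were apart for 5 higher (6.94%) and 20 lower members (27.8%), where 20.2% and 21.9% of all genes were. In Het against WT, edgeR called 0 members, where 0% of all genes were called, with 18 members (25%) at an unadjusted p under 0.05 against 13.9% of all genes. The ranges were apart for 20 higher (27.8%) and 16 lower members (22.2%), where 23.7% and 22.9% of all genes were. DESeq2 called 2 members in Het against WT and 0 in KO against WT.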

How the data were processed

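The authors deposited raw read counts per gene symbol for 6 whole and 17 dorsal hippocampus libraries. Per the submitters' processing notes, HTSeq 0.9.1, STAR, SAMtools 1.1, limma and DESeq2 were used with mm10, in roles not stated. The NEBNext kit does not mark strand, and exons of 23 of the 72 genes overlap genes on the opposite strand. Among the dorsal symbols, 26 had become dates and were left out, with 0.314 to 0.358% of the reads.

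Counts were tested in R 4.3.3 with edgeR 4.0.16 (TMM, filterByExpr with minima of 10 and 15, quasi-likelihood F test, two-sided, Benjamini-Hochberg over all genes, threshold 0.05). Genotype was the term for whole hippocampus (3 residual degrees of freedom), and group with batch the terms for dorsal hippocampus (11). The SE is the log2 difference divided by the square root of F. CPM are TMM-scaled, and lengths and coordinates come from GENCODE M21 on mm10. DESeq2 1.42.0, other scaling, filters, designs and left-out libraries were alternatives, and the test was checked on simulated data. The simulated counts held no batch or tissue differences between libraries, so the check does not cover those. Promoters are RefSeq's for GRCm38.p6. Members and lists were chosen with earlier results of these data known. Genes are named where called, among the 5 smallest p-values of a comparison, highest in their subfamily or in a list of textbook hippocampal channels. The labels assigned every library to a group, and libraries of a group differed beyond sampling noise. Intervals cover counting error only. The own values of 3 members are not reported here.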

Additional observations from a re-analysis of the deposited data

Results flagged for a closer look

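Of 132 combinations of a gene and a dorsal group of 4 or 5 libraries, 14 (10.6%) held 1 library far from the others by Dixon's criterion, where chance gives about 1 in 20. In KO fear, KO fear 2 was low for Kcna2 (168.9 CPM, the others 212.1 to 219.6), Kcnj16 (16.43 CPM, the others 21.8 to 22.08) and Kcnma1 (49.42 CPM, the others 75.59 to 79.6). It was also the library with the lowest channel sum, 4275 CPM, and lowest CA1 marker sum, 394 CPM, and one of the 3 whose removal ended every call between KO fear and WT fear.

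In KO home, KO home 3 was high for Kcna1 (332 CPM, the others 204.3 to 233.1) and Kcna2 (291.5 CPM, the others 222.4 to 241.1). KO home 1 was low for Kcna4 (32.22 CPM, the others 42.4 to 44.43), Kcnh7 (4.588 CPM, the others 13.07 to 15.77) and Kcns1 (12.65 CPM, the others 15.29 to 16.05).

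In WT home, WT home 2 was low for Kcnd2 (148.6 CPM, the others 192.8 to 210.0), Kcnj3 (178.9 CPM, the others 215.9 to 229.6) and Kcnk12 (2.644 CPM, the others 5.481 to 6.423), and high for Kcnj13 (2.266 CPM, the others 0.7888 to 1.151). WT home 1 was high for Kcnh7 (17.35 CPM, the others 8.703 to 9.945) and Kcnk9 (40.23 CPM, the others 15.32 to 21.32).

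The fear difference of Kcnj12 differed between the genotypes by the interaction term, by -1.261 on the log2 scale, KO minus WT.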

How the results depend on the processing

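Counts of called members moved by over 1.5 times in these settings. For these settings the share of all genes called is not given, here or above. The counts therefore do not compare the members with all genes. KO fear against WT fear (31 called) had 12 without the batch term and 0 to 42 without 1 library, 42 without KO home 3. WT fear against WT home (2) had 1 with RLE size factors, 10 with DESeq2, 7 without the filter, 8 without the batch term, 0 in batch B1 alone and 0 to 11 without 1 library, 11 without KO home 1. The interaction (1) had 2 with RLE, 13 with DESeq2, 7 without the filter, 0 without the batch term and 0 to 13 without 1 library, 13 without WT fear 1. KO against Het (1) had 3 with DESeq2, 0 in a fit of those 2 groups alone and 0 to 23 without 1 library, 23 without Het 1. Het against WT (0) had 2 with DESeq2 and 0 to 25 without 1 library, 25 without Het 1. KO home against WT home (0) had 0 to 4 without 1 library, 4 without KO home 3. KO against WT and KO fear against KO home had 0 in every alternative run. No log2 difference reversed. Apart from fewer samples or genes in a fit, the cause was not tested.

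Replicate numbers were shared between groups. Of the dorsal pairs, 3 of 22 with the same number and 33 of 85 with different numbers correlated above 0.1. Of the whole hippocampus pairs with the same number, 2 of 6 did. Of the dorsal libraries, 3 of 17 correlated best with their own number. With 2 libraries a group, deviations from the group mean mirror each other, so the whole hippocampus pairs cannot decide the question. Whether replicate numbers pair the libraries was not settled. With the replicate block, 0 members were called in KO fear against WT fear, WT fear against WT home, the interaction and KO against Het.

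Low counts limit Kcnmb1, Kcnj13, Kcna5, Kcnh6, Kcne4, Kcnj14 and Kcnh4, at means of 10 to 19.7 reads over the dorsal libraries. Per kilobase of the longest transcript, 7 of 19 subfamily leaders moved by more than 1 SD, among them Kcnmb4 (38.9 CPM per kb) and Kcnn2 (12.1), and each stayed first in its subfamily.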
